A study of Mus musculus with 16 samples.

Results

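The 10 genes described here carry out or receive the signaling of prostaglandins and leukotrienes, and they were taken by name from the 54532 genes of each expression table: Ptgs1, Ptgs2, Ptgis, Ptges, Ptger4, Alox5, Alox5ap, Hpgd, Tbxas1 and Ltc4s. They were measured by bulk RNA-seq in pulmonary ECs, the cells that line the blood vessels of the lung. The ECs came from digested mouse lungs, in which magnetic beads first removed cells with CD45, a leukocyte surface protein encoded by Ptprc, and then captured cells with CD31, encoded by Pecam1. Male WT C57/BL6J mice of 8 weeks received saline (n = 4) or 10 mg/kg LPS (n = 6), a constituent of bacterial outer membranes, into the trachea 24 h before the lungs were taken. In a separate experiment Fgfr1 loxP/loxP mice ("wt", n = 3) and their littermates VE-cadherin-CreERT2 Fgfr1 loxP/loxP, named Fgfr1 iΔEC/iΔEC ("cko", n = 3), all received tamoxifen and then 2 mg/kg LPS into the trachea, also for 24 h. In these cko mice the VE-cadherin promoter drives the tamoxifen-activated Cre in ECs, and the wt mice carry the floxed alleles without the Cre. Neither of these groups has a saline control, so the effect of LPS cannot be read from the second experiment. The values are FPKM, fragment numbers corrected for gene length and for a library size that was not the number of reads on genes. Reads on genes numbered 13478726 to 19043015 per library.

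Prostaglandins and leukotrienes are made from arachidonic acid, which phospholipases free from membranes. The cyclooxygenases COX-1 and COX-2 turn it into prostaglandin H2, and terminal synthases then make prostacyclin, prostaglandin E2 or thromboxane A2 from it. 5-lipoxygenase instead leads to the leukotrienes, with the help of an activating protein in the nuclear membrane. Endothelium is known for prostacyclin, which widens vessels and restrains platelets, and the lung for the rapid uptake and oxidation of circulating prostaglandins. Leukotrienes are made mainly by neutrophils, macrophages and mast cells, and thromboxane by platelets and macrophages.

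Ptgs2 and Ptges encode the inducible steps toward prostaglandin E2, and the sequence before their start sites is shown because both genes rose with LPS and lie next to each other in the pathway. RefSeq promoters on GRCm38.p6 were matched for 8 of the 10 genes. Ptgis and Alox5ap were not matched. The 250 bases before the Ptgs2 start lie at chr1:150099781-150100030 on the plus strand, and those before the RefSeq start of Ptges at chr2:30903298-30903547 on the minus strand. The RefSeq start of Ptges lies 26566 bases inside the deposited gene model, so its sequence is not the one upstream of that model's own start. Each is written 5′ to 3′, and capitals mark matches, on either strand, to a GC box (GGGCGG) or to a C/EBP-type palindrome (TTGCGCAA).
Ptgs2: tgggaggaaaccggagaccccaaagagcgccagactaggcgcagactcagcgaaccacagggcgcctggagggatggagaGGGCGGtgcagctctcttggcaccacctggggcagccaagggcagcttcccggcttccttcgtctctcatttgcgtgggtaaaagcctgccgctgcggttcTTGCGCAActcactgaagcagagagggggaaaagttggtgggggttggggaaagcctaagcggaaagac
Ptges: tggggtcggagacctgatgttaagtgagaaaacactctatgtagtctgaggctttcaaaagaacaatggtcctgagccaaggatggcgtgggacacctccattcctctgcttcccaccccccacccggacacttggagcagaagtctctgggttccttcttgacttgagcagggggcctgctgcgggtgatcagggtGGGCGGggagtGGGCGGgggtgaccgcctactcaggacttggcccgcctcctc
The palindrome began 69 bases before the Ptgs2 start and occurred in 0.164% of the 32851 RefSeq promoters in windows of this length. The GC box matched once before Ptgs2 and at 2 places before Ptges, 53 and 42 bases from the start, and 32.7% of all promoters held at least 1 match. Other motifs were looked for on both strands and had no match in either window. The core of the cAMP response element, TGACGT, was held by 6.47% of all promoters. The AP-1 site, with the letters TGAGTCA, was held by 4.46%. The E-box, searched in its form CACGTG, was held by 6.02%. The letters of a TATA box, TATAAA, were held by 12.4%, and the kappaB consensus by 3.9%. Just after the Ptgs2 start, at chr1:150100037-150100060, the cAMP response element core on the minus strand and the E-box overlapped, as the capitals show.
Ptgs2 after the start: accactACGTCACGTGgagtccgc
In the 50 bases after the start, 0.947% of all promoters held the cAMP response element core and 1.08% the E-box. These are letter matches placed by the annotated starts, and neither binding nor the start of transcription was measured.

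The labels were first compared with the genes they bear on. Fgfr1 was at 2.90, 2.91 and 2.59 FPKM in the wt libraries and at 0.683, 1.41 and 1.15 FPKM in the cko libraries, so that every cko library lay below every wt library. Pecam1 was at 338.5 to 516 FPKM in saline, 233.6 to 443.9 FPKM in LPS, 347 to 481 FPKM in wt and 399.7 to 514 FPKM in cko. Ptprc, which the first beads should remove, was at 3.53 to 11.0 FPKM in saline and at 22.1 to 52.7 FPKM in LPS, and it was at 14.0 to 23.2 FPKM in wt and 10.1 to 21.8 FPKM in cko. Leukocyte transcripts were thus present in every library, and more so after LPS. In bulk samples of this kind, fewer cells of a type and less RNA per cell cannot be told apart.

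A pair of libraries stood apart within their groups. Saline 1 had S100a8, a neutrophil granule gene, at 332 FPKM, where saline 2 to 4 had 16 to 62.8 FPKM, and its list of 8 neutrophil markers summed to 1382 FPKM against 71.4 to 309 FPKM. It also had the highest saline sums of endothelial markers (5849 FPKM against 3473 to 4280), epithelial markers (2748 against 1081 to 2083) and mural markers (116 against 24.8 to 47.4). A sum follows the most abundant genes of its list. On the mean of log2(FPKM + 1), saline 3 was higher for the endothelial list, at 8.18 against 8.14 in saline 1. By that mean saline 1 was still the highest for the epithelial (6.37) and mural (3.29) lists. The reads on genes of saline 1, 13478726, were the fewest. LPS 1 had the highest summed list of leukocyte markers in its group, 1554 FPKM against 641 to 1408 FPKM, and the lowest summed list of endothelial markers, 1524 FPKM against 2287 to 3596 FPKM. Values without these libraries are given for each gene whose call they changed or whose log2 fold change they moved by more than 1.5 times, and for Ptgs2 and Alox5ap.

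The question of the first comparison was how LPS changes gene expression in lung ECs. The inducible cyclooxygenase gene Ptgs2, the prostaglandin E synthase gene Ptges, the thromboxane synthase gene Tbxas1, the receptor gene Ptger4 and the leukotriene gene Alox5ap rose, by 4.16 (Ptgs2) to 10.2 (Alox5ap) times in mean FPKM. Without saline 1 these folds of the means were 8.80 for Ptgs2 and 20.4 for Alox5ap, and those of the other 3 genes were 5.98 to 8.95. Ptgs1, Ptgis, Ltc4s and the inactivating enzyme gene Hpgd did not pass the test in either direction, and Alox5 passed on its adjusted p but not on the fold limit. On the log2(FPKM + 1) scale, tested with limma over 14893 genes and called at an adjusted p at or under 0.05 with a log2 fold change of 1 or more in size, 5 of the 10 genes were called higher and 0 lower. Over all genes tested, 11.9% were called higher and 6.79% lower, or 1768 and 1011 genes. At the adjusted p alone 6 of the 10 genes were higher and 0 lower, beside 29.5% and 23.7% of all genes. Every LPS library lay above every saline library in 4 of the 10 genes, and below in 0, beside 22.7% and 16.7% of all genes. The median log2 fold change of the 10 genes was 1.27, and that of all genes tested was 0.01. Genes were tested if they averaged 0.5 FPKM or more over the libraries compared. Ptger4 and Tbxas1, at saline means of 0.488 and 0.485 FPKM, thus entered through LPS alone. No conclusion is drawn from the split of the 10 genes by direction or from their median. The split of all calls depended on the scaling, with 1378 higher and 1452 lower when scaled on library totals, 1366 and 1326 after quantile normalization, and 4342 and 208 when scaled on the endothelial list. The count of 5 genes called higher was 5 or 6 under each of these scalings.

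In saline the order of levels, per length and as mean FPKM, ran from Hpgd at 911 ± 84.6 (SD, n = 4) through Ptgs1 at 19.4 ± 7.30, Ptgis at 14.8 ± 1.07, Alox5ap at 11.2 ± 11.3 and Ptgs2 at 4.68 ± 4.95 FPKM. Ptges at 1.73 ± 0.654, Alox5 at 1.40 ± 0.987, Ltc4s at 0.978 ± 0.683, Ptger4 at 0.488 ± 0.272 and Tbxas1 at 0.485 ± 0.163 FPKM (SD, n = 4) were below 2 FPKM. Hpgd thus stood far above the others, and among the remaining genes the ranges of neighbours in this order overlapped. In LPS Alox5ap moved to the second place, at 115 ± 29.2 FPKM, behind Hpgd at 801 ± 248 FPKM (SD, n = 6). Ltc4s was the lowest of the 10 genes in LPS, at 1.60 ± 0.239 FPKM.

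**Figure D1:**
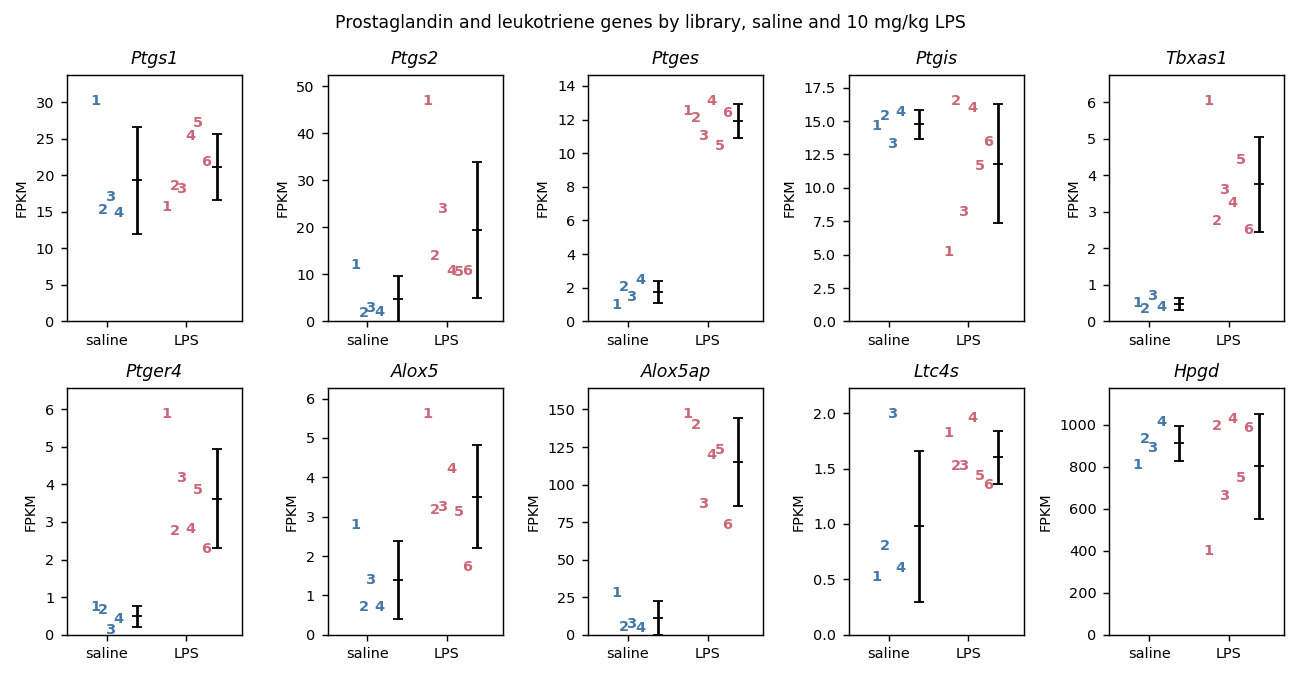
Each panel plots the FPKM of 1 gene (vertical axis from 0) in the saline and LPS libraries, with the replicate number as the symbol and the mean ± SD as the bar beside it (n = 4 and n = 6, bars clipped at 0). Ptges, Tbxas1, Ptger4 and Alox5ap have every LPS library above every saline library, while Ptgs2 overlaps because saline 1 is at 12.1 FPKM.

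Ptgs1 and Ptgs2 encode the constitutive and the inducible cyclooxygenase, COX-1 and COX-2. Ptgs2 (ENSMUSG00000032487, chr1:150100031-150108227, plus strand) was at 12.1, 1.85, 2.84 and 1.95 FPKM in saline 1 to 4. In the LPS libraries its lowest value was 10.5, its median 12.3 and its highest 46.9 FPKM. Saline 1 was the single saline library inside the LPS range, and LPS 1 and LPS 3, at 46.9 and 24.0 FPKM, stood above the other LPS libraries. Its change was 1.94 on the log2 scale (standard error, SE, 0.50, limma adjusted p = 0.00745), and the mean FPKM was 4.16 times that of saline. Without saline 1 the log2 fold change was 2.45, and without LPS 1 it was 1.65. Ptgs1 (ENSMUSG00000047250, chr2:36230426-36252272, plus strand) was at 30.2, 15.2, 17.1 and 14.8 FPKM in saline and at 15.7 to 27.2 FPKM, with a median of 20.3 FPKM, in LPS. Its highest library of all 10 was saline 1, and the groups overlapped. The log2 fold change of Ptgs1 was 0.16 (95% interval -0.31 to 0.63, limma adjusted p = 0.554). Without saline 1 it was 0.38 (limma adjusted p = 0.0766), and leaving out any other single library gave 0.06 to 0.23. The sign of the Ptgs1 difference turned when libraries were scaled on their totals (-0.03) or by quantiles (-0.15), and scaling on the endothelial list gave 0.84 (limma adjusted p = 0.00784), under the fold limit. The ratio of Ptgs2 to Ptgs1 was 0.121 to 0.400 in the saline libraries and 0.387 to 2.99 in the LPS libraries, so that Ptgs2 was the more abundant of the pair in LPS 1 and LPS 3 and the less abundant in the other 8 libraries.

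Of the terminal synthase genes Ptges and Tbxas1 were called and Ptgis was not. Ptges (ENSMUSG00000050737, chr2:30889471-30929863, minus strand) encodes the inducible prostaglandin E synthase that works with COX-2. It was at 0.961, 2.02, 1.48 and 2.47 FPKM in saline and at 10.4 to 13.1 FPKM, with a median of 12.2 FPKM, in LPS. Every LPS library was far above every saline library, and the LPS libraries lay close together, with an SD of 0.991 FPKM. Its log2 fold change was 2.27 (SE 0.15, limma adjusted p = 1.44e-06), with a mean 6.87 times that of saline, and the values rest on 50 to 191 reads per saline library. Tbxas1 (ENSMUSG00000029925, chr6:38875404-39084585, plus strand) encodes thromboxane A synthase. It was at 0.515, 0.338, 0.702 and 0.386 FPKM in saline and at 2.50 to 6.04 FPKM, with a median of 3.42 FPKM, in LPS. All LPS libraries were above all saline libraries, and LPS 1 was the highest. The log2 fold change was 1.64 (SE 0.19, limma adjusted p = 4.91e-05). Since a pseudocount of 1 draws low values together, this scale understates the change of such low genes, and the ratio of the means was 7.74, or 2.95 as a log2 value. Ptgis (ENSMUSG00000017969, chr2:167191805-167240604, minus strand), which encodes the prostacyclin synthase of endothelium, did not pass the test. It was at 14.6, 15.4, 13.3 and 15.7 FPKM in saline and at 5.18 to 16.5 FPKM, with a median of 12.5 FPKM, in LPS. LPS 2 and LPS 4 were above every saline library, and LPS 1 and LPS 3 were the lowest of all 10. Its log2 fold change was -0.38 (95% interval -0.96 to 0.20, limma adjusted p = 0.238). Without LPS 1 it was -0.19 (limma adjusted p = 0.399), and it turned to 0.28 (limma adjusted p = 0.245) when libraries were scaled on the endothelial list. Quantile normalization gave -0.65 (limma adjusted p = 0.0494), under the fold limit in size, and scaling on library totals -0.57 (limma adjusted p = 0.0763). The ratio of Ptges to Ptgis was 0.066 to 0.157 in saline and 0.731 to 2.40 in LPS, with no overlap.

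Ptger4 (ENSMUSG00000039942, chr15:5206661-5244187, minus strand) encodes EP4, a receptor for prostaglandin E2 that raises cAMP. It was at 0.739, 0.659, 0.135 and 0.420 FPKM in saline and at 2.29 to 5.86 FPKM, with a median of 3.33 FPKM, in LPS. Every LPS library lay above every saline library, with LPS 1 highest and saline 3 lowest. The log2 fold change was 1.61 (SE 0.21, limma adjusted p = 0.000112), and the ratio of the means was 7.42. The saline values rest on 16 to 97 reads per library.

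Among the leukotriene genes, Alox5ap had the largest log2 fold change of the 10 genes in this fit, and Ltc4s did not pass the test. Alox5ap (ENSMUSG00000060063, chr5:149264767-149288153, plus strand) encodes FLAP, which presents arachidonic acid to 5-lipoxygenase. It was at 28.1, 5.06, 7.14 and 4.69 FPKM in saline and at 73.1 to 146.8 FPKM, with a median of 121.5 FPKM, in LPS. Saline 1 was again the highest of its group, and it stayed below every LPS library. The log2 fold change was 3.57 (SE 0.41, limma adjusted p = 5.1e-05), the ratio of the means was 10.2, and without saline 1 the log2 fold change was 4.10. Alox5 (ENSMUSG00000025701, chr6:116410077-116461178, minus strand) encodes 5-lipoxygenase itself. It was at 2.80, 0.704, 1.38 and 0.705 FPKM in saline and at 1.71 to 5.60 FPKM, with a median of 3.21 FPKM, in LPS. The groups overlapped because saline 1 was above LPS 6. With a log2 fold change of 0.94 (SE 0.27, limma adjusted p = 0.0129) it missed the fold limit, which it passed without saline 1 (1.19) and without LPS 6 (1.08). The ratio of Alox5ap to Alox5 was 5.18 to 10.0 in saline and 26.2 to 43.9 in LPS, so the transcripts of the partner proteins did not change in proportion. Ltc4s (ENSMUSG00000020377, chr11:50236461-50238616, minus strand), which encodes leukotriene C4 synthase, was at 0.522, 0.802, 1.99 and 0.601 FPKM in saline and at 1.35 to 1.96 FPKM, with a median of 1.52 FPKM, in LPS. Saline 3 was above every LPS library and the other saline libraries were below them all. Its values rest on 7 to 36 reads per saline library and 25 to 35 per LPS library, and the log2 fold change of 0.44 (95% interval 0.04 to 0.85) had a limma adjusted p of 0.0594. Without saline 3 it was 0.66 (limma adjusted p = 0.00221), still under the fold limit. The adjusted p of Ltc4s was also under 0.05 at a pseudocount of 0.1 (0.82, limma adjusted p = 0.0466), by quantiles (0.53, limma adjusted p = 0.0386) and on the endothelial list (0.83, limma adjusted p = 0.00846), again under the fold limit.

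Hpgd (ENSMUSG00000031613, chr8:56294585-56321043, plus strand) encodes 15-hydroxyprostaglandin dehydrogenase, the enzyme that begins the inactivation of prostaglandins. It was at 808.6, 932, 891 and 1012 FPKM in saline and at 398 to 1026 FPKM, with a median of 864.5 FPKM, in LPS. LPS 1, LPS 3 and LPS 5 were below every saline library, LPS 4 was above them all, and the groups overlapped. The level of Hpgd was higher than that of 99.9% of the genes tested in saline and of 99.8% in LPS. Its log2 fold change of -0.25 (95% interval -0.87 to 0.37) had a limma adjusted p of 0.468, and without LPS 1 it was -0.06 (limma adjusted p = 0.810). The direction of Hpgd rested on the scaling, since quantile normalization gave -0.86 (limma adjusted p = 0.0392) and scaling on the endothelial list gave 0.47 (limma adjusted p = 0.0371), while that scaling also moved the median of all genes to 0.563. The ratio of Hpgd to Ptges fell from 409.7 to 841 in the saline libraries to 31.9 to 82.2 in the LPS libraries.

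**Figure D2:**
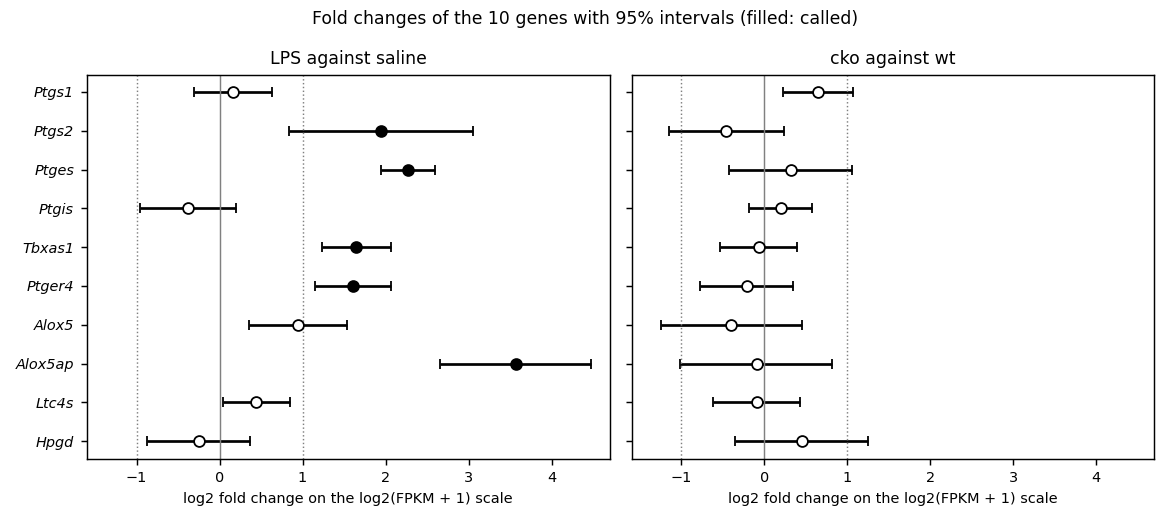
Log2 fold changes of the 10 genes on the log2(FPKM + 1) scale (horizontal axis) with 95% intervals from limma, for LPS against saline on the left and cko against wt on the right, filled where called, with dotted lines at -1 and 1. The 5 filled points on the left are Ptgs2, Ptges, Tbxas1, Ptger4 and Alox5ap, and no point on the right is filled.

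Markers of other cells moved with the genes that rose. All 6 leukocyte markers and 7 of 8 monocyte and macrophage markers were called higher in LPS, and in the same 6 and 7 genes the groups did not overlap. Over all genes tested, 11.9% were called higher and 6.79% lower, and 22.7% were higher and 16.7% lower without overlap of the groups. The marker counts of this paragraph stand beside these shares. The leukocyte list summed to 227.5, 156, 76.5 and 138 FPKM in saline 1 to 4 and to 641 to 1554 FPKM in LPS (median 1144), with Coro1a its most abundant gene. The monocyte and macrophage list summed to 1112, 474, 736 and 374 FPKM in saline and to 1859 to 4013 FPKM in LPS (median 3157), with Lyz2 its most abundant gene. Of the neutrophil markers 6 of 8 were called higher, and their sum was 1382, 71.4, 309 and 77.4 FPKM in saline and 1285 to 6628 FPKM in LPS (median 2592), led by S100a9. None of these leukocyte, monocyte, macrophage and neutrophil markers was at 0 in all libraries. Platelet markers were called higher in 3 of 6 genes, summed to 49.2, 40.4, 20.0 and 29.7 FPKM in saline and to 48.9 to 144 FPKM in LPS, and were led by Pf4, with Gp1ba under 1 FPKM in all 10 libraries. Of the 10 endothelial markers 3 were called lower and 0 higher, and 5 were lower and 0 higher without overlap of the groups. The endothelial sum, led by Cldn5, was 5849, 3473, 4280 and 3610 FPKM in saline and 1524 to 3596 FPKM in LPS. The 7 markers of mast cells, basophils and eosinophils, which are rich in leukotriene C4 synthase, summed to only 1.07 to 18.0 FPKM in saline and 1.46 to 8.09 FPKM in LPS, with Prg2 the most abundant, and Ms4a2, Tpsb2 and Epx stayed under 1 FPKM in all 10 libraries. The part of other cells in the changes of the 10 genes was not tested.

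The remaining lists were read in the same way, beside 11.9% called higher and 6.79% called lower over all genes tested. Of the 6 lymphocyte markers 3 were called lower, with Cd3e under 1 FPKM in all 10 libraries and Cd79a the most abundant. Epithelial markers, led by Sftpc, were called lower in 2 of 8 genes, and mural markers, led by Acta2, in 2 of 6. Fibroblast markers, led by Col3a1 and with Lum under 1 FPKM in all 10 libraries, were called in 0 of 5 tested. Erythroid markers, led by Hba-a1, were called higher in 3 of 4 genes.

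LPS 1 and LPS 6 were at the ends of several of the genes and of several marker lists. LPS 1 had the highest Ptgs2, Tbxas1, Ptger4, Alox5 and Alox5ap of its group and the lowest Ptgs1, Ptgis and Hpgd, beside the highest leukocyte sum and the lowest endothelial sum. LPS 6 had the lowest Tbxas1, Ptger4, Alox5, Alox5ap and Ltc4s, beside the lowest leukocyte, neutrophil and macrophage sums. Ptges did not share this order, with LPS 4 highest and LPS 5 lowest. Nor was it shared by Ltc4s at its top, where LPS 4 was highest (1.96 FPKM), or by Ptgs2 at its bottom, where LPS 5 was lowest (10.5 FPKM). The highest neutrophil sum was that of LPS 2, at 6628 FPKM, with LPS 1 at 2717 FPKM.

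Set against Pecam1 of the same library, Ptgs2, Ptges, Tbxas1, Ptger4 and Alox5ap had every LPS library above every saline library, while Ptgs1, Ptgis, Alox5, Ltc4s and Hpgd overlapped. For Alox5ap the ratio to Pecam1 was 0.0138 to 0.0545 in saline and 0.171 to 0.628 in LPS, and for Ptges it was 0.00186 to 0.00729 and 0.0289 to 0.0533. Set against Ptprc the picture differed, and Ptger4 was the single gene of the 10 whose LPS libraries all lay higher, at 0.0382 to 0.0886 in saline and 0.096 to 0.118 in LPS. Alox5ap to Ptprc was 0.68 to 2.56 in saline and 2.00 to 4.95 in LPS, with an overlap. Ptges to Ptprc was 0.0875 to 0.419 and 0.237 to 0.561, and Ptgs2 to Ptprc was 0.248 to 1.10 and 0.321 to 0.89. Tbxas1 to Ptprc was 0.0454 to 0.0651 in saline 1, 2 and 4 and 0.0833 to 0.135 in LPS, and overlapped through saline 3 alone (0.199). Ptprc had the smallest log2 fold change of the 6 leukocyte markers, 2.19 against 2.43 to 3.25, so these ratios depend on the marker chosen. Hpgd, Ptgis and Ptgs1 relative to Ptprc were lower in every LPS library. A ratio within a library shows unequal change and does not tell which of its genes moved.

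**Figure D3:**
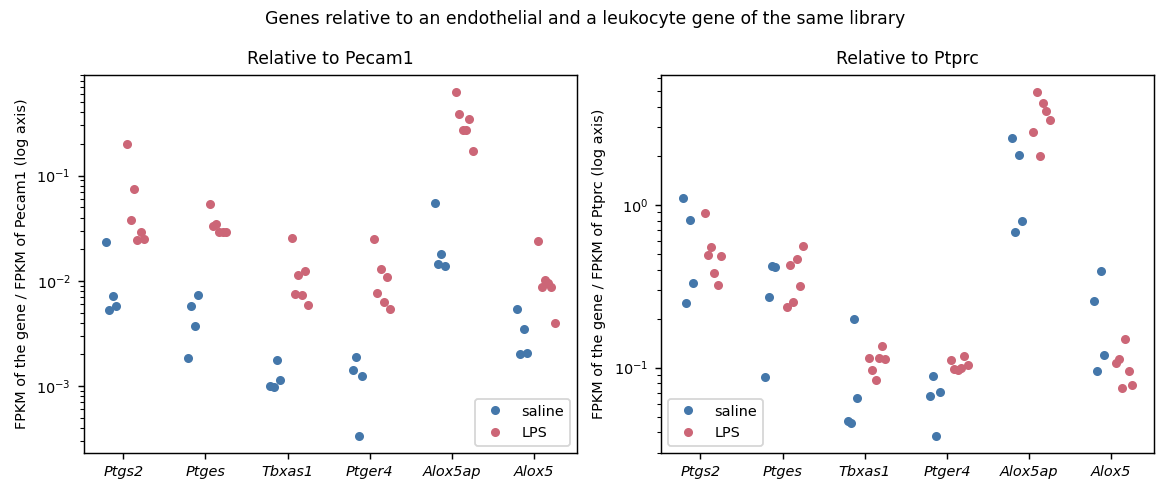
FPKM of 6 genes divided by the FPKM of Pecam1, an endothelial gene (left), and of Ptprc, a leukocyte gene (right), in each saline and LPS library, on log axes. Relative to Pecam1 5 of the 6 genes have every LPS library above every saline library, and relative to Ptprc Ptger4 alone does.

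The wider pathway was read from a list of 41 other eicosanoid genes with 42 identifiers, of which 27 were tested in LPS against saline. Of these 7 were called higher and 3 lower, with a median log2 fold change of 0.55, beside 11.9% higher and 6.79% lower of all genes tested. At the adjusted p alone 14 were higher and 4 lower, beside 29.5% and 23.7% of all genes. The groups did not overlap in 13 of them that were higher and 4 that were lower, beside 22.7% and 16.7%, and the counts by role below stand against the same shares. Genes were tested by their mean over all libraries compared. Ggt1, at means of 0.274 FPKM in saline and 1.96 FPKM in LPS, thus entered through LPS alone. Alox15, at 0.976 and 0.149 FPKM, was left out. The split of the list by direction and its median depend on this filter, and no conclusion is drawn from them. Of the enzymes that release arachidonic acid, 1 of 3 tested was called. Pla2g4a, which encodes the cytosolic phospholipase A2 that feeds both branches, rose from 0.613 to 1.28 FPKM in saline to 5.11 to 10.2 FPKM in LPS (log2 fold change 2.12, limma adjusted p = 4.54e-06). Of the 3 further prostanoid synthases tested 0 were called, and 2 were higher at the adjusted p alone. These were Ptges2 (log2 fold change 0.87), and Ptges3 (0.72), whose levels rose without reaching the fold limit.

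Of the 4 prostanoid receptors tested 1 was called higher and 1 lower, and of the 3 leukotriene receptors tested 1 was called higher and 1 lower. At the adjusted p alone 2 were higher and 1 lower in each of these roles. Ptgir, which encodes the prostacyclin receptor, rose from 0.159 to 0.949 FPKM in saline to 5.68 to 11.3 FPKM in LPS (log2 fold change 2.40, limma adjusted p = 5.75e-06). Tbxa2r, which encodes the thromboxane receptor, fell from 5.59 to 12.5 FPKM to 2.35 to 5.30 FPKM (log2 fold change -1.19, limma adjusted p = 0.0021). Thus the prostacyclin receptor rose where its synthase gene Ptgis did not pass the test, and the thromboxane receptor fell where its synthase gene Tbxas1 rose. Ltb4r1, which encodes the high-affinity receptor for leukotriene B4, a neutrophil attractant, had the largest log2 fold change of the list, from 0.778 to 5.69 FPKM in saline to 31.4 to 83.6 FPKM in LPS (4.39, limma adjusted p = 6.2e-06). Cysltr2, which encodes a receptor for cysteinyl leukotrienes, fell from 1.66 to 3.16 FPKM to 0.229 to 0.816 FPKM (-1.02, limma adjusted p = 0.000422). In each of these 4 receptors the groups did not overlap. Saline 1, the saline library with the most neutrophil transcripts, set the top of the saline range of Ltb4r1, at 5.69 FPKM against 0.778 to 2.05 FPKM, and the mean of LPS was 26.5 times that of saline with it and 49.3 times without it.

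Among the enzymes that convert or inactivate the products, 1 of 7 leukotriene enzymes tested was called higher and 1 lower. Ggt1, which encodes a gamma-glutamyltransferase that turns leukotriene C4 into D4, rose from 0.0492 to 0.387 FPKM in saline to 0.954 to 3.61 FPKM in LPS (log2 fold change 1.17, limma adjusted p = 0.000899). Dpep1, which encodes a dipeptidase that turns leukotriene D4 into E4, fell from 10.1 to 23.1 FPKM to 3.30 to 8.64 FPKM (-1.42, limma adjusted p = 0.00105). Of the 7 transport and inactivation genes tested, 3 were called higher and 0 lower. Cyp4f18, a leukotriene B4 hydroxylase of neutrophils, went from 5.04 to 22.1 FPKM in saline to 53.4 to 96.1 FPKM in LPS (log2 fold change 3.02, limma adjusted p = 3.09e-05). Saline 1 was again the highest saline library, the others being at 5.04 to 7.18 FPKM, and the ratio of the means was 7.69 with it and 12.5 without it. Ptgr1, which encodes prostaglandin reductase 1, went from 1.05 to 1.45 FPKM to 4.46 to 10.2 FPKM (1.91), and Abcc1, which encodes an exporter of leukotriene C4, from 1.51 to 2.15 FPKM to 4.38 to 9.81 FPKM (1.34). The prostaglandin transporter gene Slco2a1, whose product works beside that of Hpgd in lung uptake, was at 112.5 to 121.5 FPKM in saline and at 59.3 to 139.8 FPKM in LPS (-0.27, limma adjusted p = 0.262). The leukocyte, monocyte and neutrophil marker genes given above were called higher in the same comparison, and their part in these changes was not tested.

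**Figure D4:**
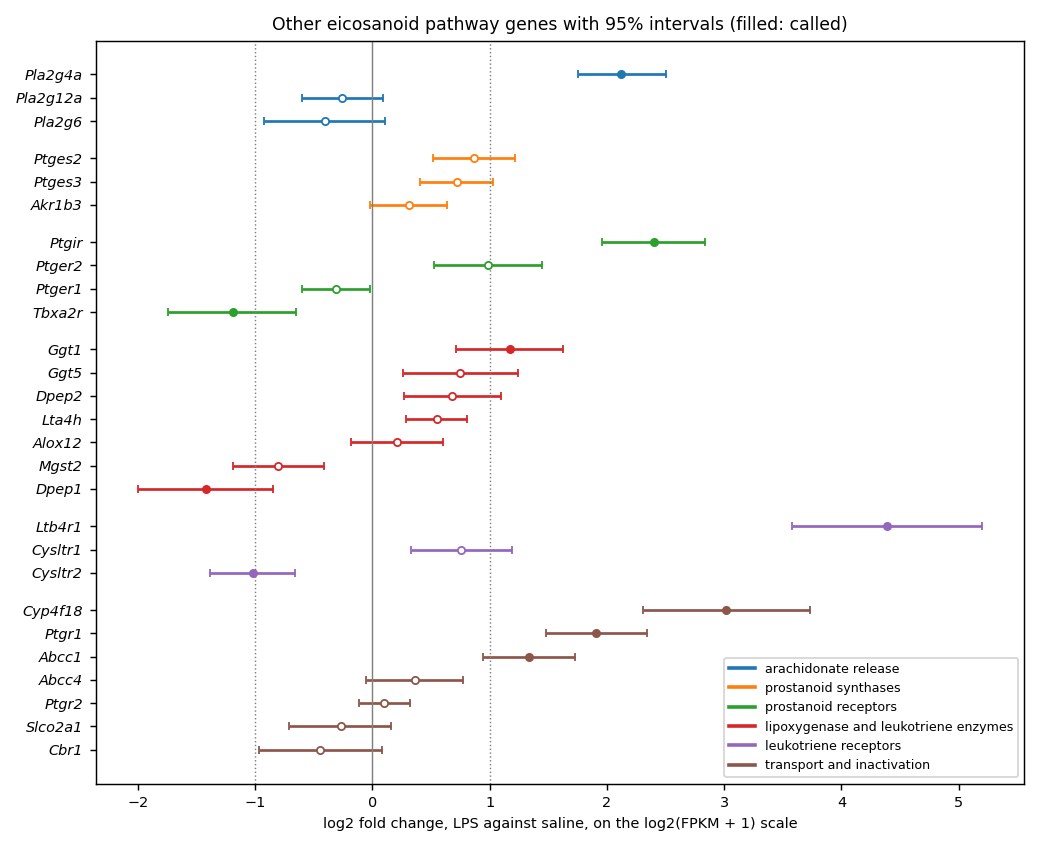
Log2 fold changes of the 27 other eicosanoid genes tested in LPS against saline on the log2(FPKM + 1) scale, with 95% intervals from limma, coloured by role and filled where called. Ltb4r1 (4.39) and Cyp4f18 (3.02) lie farthest to the right, and Dpep1 (-1.42) farthest to the left.

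Several of the 10 genes share exon bases with other annotated genes on GRCm38 (GENCODE M21), and the strandedness of the libraries is not given in the sources used here, so reads on such bases cannot be assigned. Gm26542 shares 268 bases (26.4%) of Ltc4s, Gm15937 shares 1015 bases (15.3%) of Ptger4 and Gm19719 shares 189 bases (13.3%) of Alox5ap, all on the opposite strand. Gm26542 had 20 reads at most and Gm15937 2 at most in the first experiment, and Gm19719 had 7 to 191. The shared part was 6.1% or less for Ptgis with 1110018N20Rik, Ptgs1 with Gm43621, Tbxas1 with Gm42962 and Ptger4 with Ttc33, and for Ptgs2, Ptges, Alox5 and Hpgd no shared exon bases were found. Genes that overlap without shared exon bases were n-R5s180 at Alox5ap, Gm45540 at Hpgd, Gm13400 at Ptges, Gm14291 at Ptgis, and 1700025N23Rik, Gm23010 and Hipk2 at Tbxas1.

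The second comparison asked what the loss of endothelial Fgfr1 changes under LPS. None of the 10 genes was called between cko and wt, and 0% of the 14944 genes tested passed an adjusted p of 0.05 by limma, with 663 at an unadjusted p under 0.05. By limma-voom on read numbers 0 passed after adjustment and 614 had an unadjusted p under 0.05. Fgfr1, the deleted gene, was itself not called, at a log2 fold change of -0.884, although every cko library lay below every wt library. A gene that was not called in this comparison is thus not shown to be unchanged. In 1 of the 10 genes, Ptgs1, every cko library was above every wt library, beside 6.1% of all genes. In 0 of the 10 genes every cko library was below, beside 4.07%. The median log2 fold change was -0.08, and 0.01 over all genes. Libraries of the same number deviated together in this experiment, a hint of pairing that comes from these data and not from the labels. The block intervals below rest on that hint. In all 3 same-numbered pairs 5 of the 10 genes went the same way, 2 higher and 3 lower, beside 18% and 12.8% of all genes tested.

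**Figure D5:**
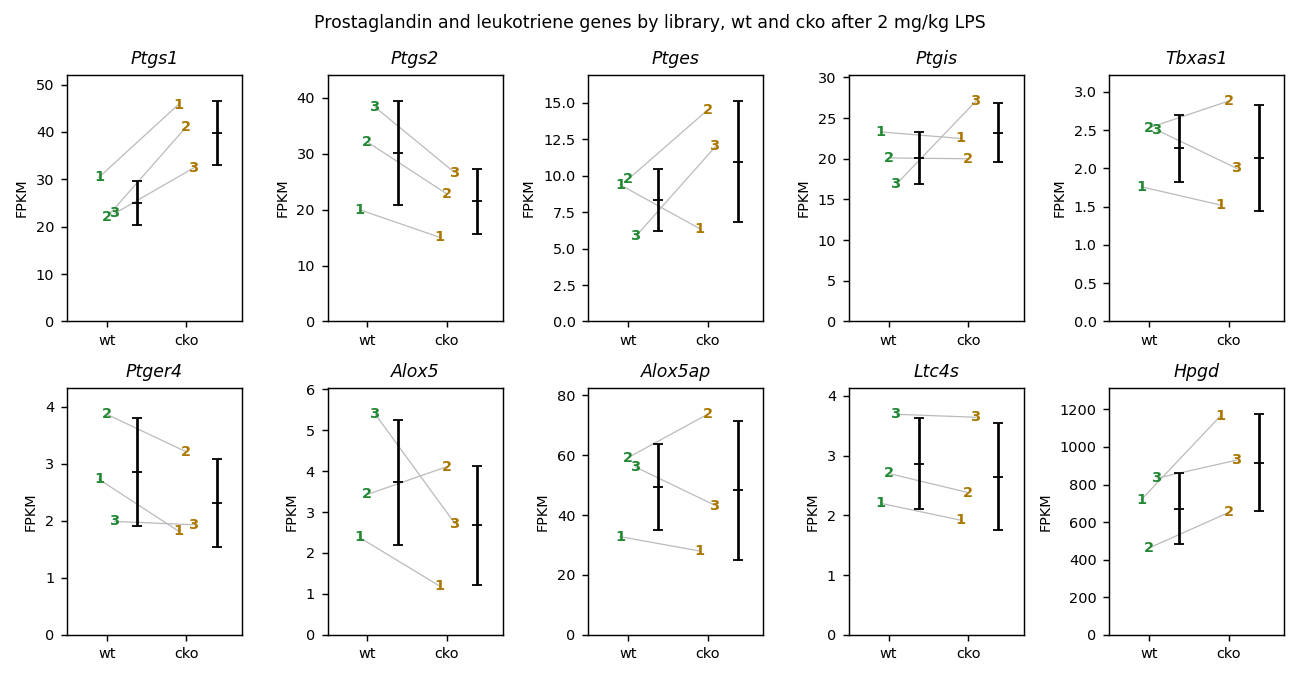
Each panel plots the FPKM of 1 gene (vertical axis from 0) in the wt and cko libraries, with the replicate number as the symbol, grey lines between same-numbered libraries and the mean ± SD beside each group (n = 3). Ptgs1 is the single gene whose groups do not overlap.

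Ptgs1 was at 30.4, 22.0 and 22.8 FPKM in wt 1 to 3 and at 45.8, 41.1 and 32.5 FPKM in cko 1 to 3. Each cko library was above all wt libraries and above its same-numbered partner. The log2 fold change was 0.65 (SE 0.18, 95% interval 0.22 to 1.07), with an unadjusted limma p of 0.00931 and an adjusted p of 0.960. Blocking on the replicate number gave an interval of 0.35 to 0.95 (limma adjusted p = 0.527). Relative to Pecam1 the groups touched, at 0.0631 to 0.0633 in wt and 0.0633 to 0.103 in cko. Of the markers of endothelium and platelets, both of which express Ptgs1, none was called. The endothelial list summed to 3118, 2510 and 2559 FPKM in wt and 3954, 2846 and 3683 FPKM in cko, with 2 of 10 genes, Cdh5 and Egfl7, higher in every cko library, beside 6.1% of all genes. The platelet list summed to 119, 206 and 212 FPKM in wt and 194, 242 and 178 FPKM in cko, which overlapped, and Itga2b alone of its 6 genes was higher in every cko library, at 11.2, 16.2 and 15.6 FPKM against 17.3, 20.1 and 17.0 FPKM. Among the marker lists the largest difference was that of the 8 epithelial genes, with a mean log2 difference of -0.75 and sums of 832, 1506 and 2648 FPKM in wt and 424, 982 and 782 FPKM in cko. Ager, an alveolar epithelial gene of that list, was at 26.3, 51.7 and 35.2 FPKM in wt and 16.9, 24.0 and 18.2 FPKM in cko, with no overlap. The groups also did not overlap in the lymphocyte gene Cd3d, lower in cko, and in the mural gene Pdgfrb, higher in cko. The part of other cells in the difference of Ptgs1 was not tested.

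Ptgs2 was at 20.0, 32.1 and 38.3 FPKM in wt and at 15.1, 22.8 and 26.6 FPKM in cko. The groups overlapped, and each cko library was below its partner. Its log2 fold change was -0.46 (95% interval -1.15 to 0.24, limma adjusted p = 0.960). With the replicate number as a block the standard error fell from 0.29 to 0.09. The block interval was -0.69 to -0.23 (limma adjusted p = 0.541), and leaving out 1 library without the block gave -0.72 to -0.23. Hpgd was at 718.5, 462 and 834 FPKM in wt and at 1167, 651 and 929.9 FPKM in cko, higher in each pair and overlapping between groups (log2 fold change 0.45, 95% interval -0.35 to 1.25).

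The other genes overlapped between the genotypes. Ptges was at 5.85 to 9.74 FPKM in wt and 6.37 to 14.5 FPKM in cko (log2 fold change 0.32, 95% interval -0.43 to 1.06), and Ptgis at 16.9 to 23.3 and 20.0 to 27.1 FPKM (0.20, -0.18 to 0.58). Ptger4 was at 1.99 to 3.87 and 1.82 to 3.21 FPKM (-0.21, -0.77 to 0.35), and Tbxas1 at 1.76 to 2.53 and 1.52 to 2.88 FPKM (-0.07, -0.54 to 0.39). Ptger4 was lower in all 3 same-numbered pairs, and blocking on the replicate number gave an interval of -0.53 to 0.10. Of the leukotriene genes, Alox5 was at 2.38 to 5.39 FPKM in wt and 1.20 to 4.11 FPKM in cko (-0.40, 95% interval -1.25 to 0.46), Alox5ap at 32.8 to 59.2 and 28.0 to 73.7 FPKM (-0.09, -1.01 to 0.82) and Ltc4s at 2.20 to 3.69 and 1.92 to 3.64 FPKM (-0.09, -0.62 to 0.43). Ltc4s was lower in all 3 pairs (block interval -0.36 to 0.17). For Alox5ap the block narrowed the interval to -0.51 to 0.33, with 1 pair higher and 2 lower. The lowest and the highest cko library of Alox5ap, cko 1 and cko 2, were also the lowest and the highest in the leukocyte sum, at 308.5 and 674 FPKM. None of the marker genes was called between cko and wt, with the same gene most abundant in each list as in the first experiment except Hbb-bs among the erythroid genes, and Cpa3, Ms4a2, Tpsb2, Cma1, Epx and Lum stayed under 1 FPKM in all 6 libraries.

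Of the wider list 26 identifiers were tested between cko and wt, 0 were called, and the median log2 fold change was -0.08. Every cko library lay below every wt library in 1 of the 26, and above in 0, beside 4.07% and 6.1% of all genes. The smallest unadjusted p values belonged to Cysltr1, Ggt5 and Slco2a1. Cysltr1, which encodes a receptor for leukotriene D4, was at 1.06, 1.36 and 0.771 FPKM in wt and at 0.567, 0.562 and 0.49 FPKM in cko, with every cko library below every wt library (log2 fold change -0.41, limma adjusted p = 0.960). Ggt5, a gamma-glutamyltransferase that also acts on leukotriene C4, was at 1.09 to 2.65 and 0.492 to 1.91 FPKM (-0.55, limma adjusted p = 0.960). Slco2a1 was at 120.8, 76.7 and 117 FPKM in wt and at 174, 102.5 and 159.5 FPKM in cko, higher in each pair as Hpgd was, and with overlapping groups (0.46, limma adjusted p = 0.960).

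Set side by side, and without a test because the tables were normalized separately and dose and genotype differ, the means of saline, of 10 mg/kg LPS and of wt under 2 mg/kg LPS were 4.68, 19.5 and 30.2 FPKM for Ptgs2. They were 1.73, 11.9 and 8.33 FPKM for Ptges, and 11.2, 114.9 and 49.3 FPKM for Alox5ap. Hpgd stood first and Alox5ap second among the 10 genes in all 3 groups given LPS.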

How the data were processed

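Bulk RNA-seq of bead-isolated pulmonary ECs was analysed in 16 libraries, grouped by their labels as saline, LPS, wt and cko. The authors aligned the reads to GRCm38 (mm10) with HISAT2 2.0.5, counted them with featureCounts 1.5.0-p3, tested them with DESeq2 and deposited FPKM with gene lengths. The strandedness, the annotation release and the formula of the FPKM are not given in the sources used here. FPKM times length gave whole read numbers for 100.0% of values (tolerance 0.05 reads), so the depth is known, and below about 3 reads a value is counting noise. The library size inside the FPKM was not the number of reads on genes. It was 22126775 against 18807007 reads for saline 2, and 16224346 against 18133012 reads for LPS 2. The deposited FPKM thus carry a scaling other than library totals. Median-of-ratios factors computed on the FPKM were at most 0.0244 in size as log2 values in the first experiment and 0.0135 in the second. The FPKM were thus already close to that scaling, and the alternative that uses these factors nearly repeats the main fit. Counting error covers reads, which are not independent molecules. Within a group the mean chi-square per gene between libraries was 5.1 or more, so no library is a copy of another.

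The planned test applied to log2(FPKM + 1), since FPKM are not counts. Genes that averaged 0.5 FPKM or more in the libraries compared were fitted with limma 3.58.1 in R 4.3.3 (lmFit, eBayes with trend), without covariates and separately for each experiment, with Benjamini-Hochberg adjustment over all genes tested. A gene was called at an adjusted p at or under 0.05 with a log2 fold change of 1 or more in size. Intervals are 95% intervals of the moderated fit. The fit was tested on simulated data, but the outcome is not given here and no result rests on it. The labels number the libraries without naming animals, so p-values measure the spread between these samples. In the second experiment the deviations of same-numbered libraries correlated at 0.248, 0.177 and 0.187 across genes, so the numbers were taken to pair the libraries, a hint from the data and not from the labels. In the first they did not (-0.209 to 0.097).

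The alternatives were a pseudocount of 0.1, no filter, scaling on library totals, on median-of-ratios factors, by quantiles or on the endothelial list, limma-voom on read numbers, no fold limit, the replicate block and leaving out each library. The text names all 10 genes, each gene of the wider list called in LPS against saline, the 3 with the smallest p in cko against wt where none was called, the most abundant gene of each marker list with those at or near 0, and genes that overlap the 10 genes. Other genes of the wider list that it gives (Ptges2, Ptges3, Alox15, Hpgds, Ptgds, and Slco2a1 under LPS), markers that separated groups (Cdh5, Egfl7, Itga2b, Ager, Cd3d, Pdgfrb) and S100a8 were added after their values were seen. The 10 genes and all lists were chosen with earlier results of these data known. The tables differed in 11 gene symbols, and those of the first were used. Promoter sequences are RefSeq entries on GRCm38.p6. Tables were made with Python 3.11.15, pandas 2.3.3 and numpy 2.4.6, and figures with matplotlib 3.10.9.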

Additional observations from a re-analysis of the deposited data

Results flagged for a closer look

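Of 20 group values examined (10 genes in saline and in LPS), 4 had 1 library set well apart from its group. About 1 in 20, or 1, would be so by chance if the values were independent and normally distributed. The 10 genes were measured in the same libraries, so no conclusion is drawn from the count. Saline 1 was far above the other saline libraries for Ptgs1 (30.2 FPKM against 14.8 to 17.1), Ptgs2 (12.1 FPKM against 1.85 to 2.84) and Alox5ap (28.1 FPKM against 4.69 to 7.14). LPS 1 was far above the other LPS libraries for Ptgs2 (46.9 FPKM against 10.5 to 24.0). The groups of 3 were not examined in this way.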

How the results depend on the processing

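Of the 10 genes, 5 or 6 were called higher and 0 lower in LPS under every alternative, and 0 were called between cko and wt. The gene that moved across the limit was Alox5, called at a pseudocount of 0.1 (1.40), with endothelial list scaling (1.42), with limma-voom (1.57), with no fold limit (0.94), with the replicate block (1.13, from libraries 1 to 4 of each group, whose numbers do not pair them) and without saline 1 or LPS 6. Ptgs2, Ptges, Tbxas1, Ptger4 and Alox5ap were called under all alternatives, with adjusted p of at most 0.0272 for Ptgs2 and at most 0.00203 for the others. Over all genes, where 1768 were called higher and 1011 lower in LPS, limma-voom gave 2355 and 2008, a pseudocount of 0.1 gave 2331 and 1840, no fold limit 4399 and 3529, and endothelial list scaling 4342 and 208.

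Signs turned in genes that were not called. In LPS against saline these were Ptgs1 on library totals (-0.03) and by quantiles (-0.15), and Ptgis (0.28) and Hpgd (0.47) on the endothelial list. In cko against wt they were Ptgis on the endothelial list (-0.06) and, leaving out 1 library each, Alox5ap (-0.45 to 0.24), Tbxas1 (-0.24 to 0.07) and Ltc4s (-0.28 to 0.05). The cause was not tested. Without a turn of sign, leaving out 1 library in cko against wt gave -0.72 to -0.23 for Ptgs2, 0.20 to 0.68 for Hpgd and 0.10 to 0.63 for Ptges. It gave 0.09 to 0.31 for Ptgis, -0.40 to -0.03 for Ptger4 and -0.68 to -0.07 for Alox5. In cko against wt the replicate block left 0 genes called (1150 at an unadjusted p under 0.05) and changed no call. Depth limits Ltc4s, with 7 reads in its lowest library, and Ptger4, with 16.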

Other observations

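Of the wider list, 15 identifiers were under the filter in LPS against saline. Alox15, which encodes 12/15-lipoxygenase of eosinophils and macrophages, had a mean of 0.976 FPKM in saline and 0.149 FPKM in LPS. Hpgds and Ptgds, which encode the prostaglandin D synthases, had means of 0.0957 and 0.0539 FPKM in saline and 0.285 and 0.0166 FPKM in LPS. Hpgds had 5 to 23 reads per saline library and 13 to 60 per LPS library, and Ptgds had 7 reads at most.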
